A study of Mus musculus with 62 samples.

Results

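H3K27ac regions of the diaphragm (Dia) that were called in none of extensor digitorum longus (EDL), quadriceps (Quad) and soleus (Sol) were described in mouse skeletal muscle. The H3K27ac peaks of the 4 muscles were merged wherever they overlapped by at least 1 bp, which gave 51588 regions. A region was Dia alone where it held a Dia peak and no peak of the other 3 muscles. This was so for 3255 regions, or 6.31% of all merged regions and 10.8% of the 30272 with a Dia peak. Each of them held a single Dia peak, from which its level, nearest gene and annotation were taken. The regions were thus chosen by their H3K27ac calls, and "alone" means not called elsewhere, since the deposited lists give no level in a muscle without a peak.

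All 4 muscles came from sedentary wild-type C57BL/6 mice, which the study's methods describe as C57BL/6J males bought at 7 to 8 weeks of age. Each histone library of Dia, EDL and Sol was made from muscles of 3 pooled animals and each of Quad from a single muscle, with 2 replicates per mark. H3K27ac and H3K4me2 (histone H3 dimethylated at lysine 4) were measured by chromatin immunoprecipitation sequencing (ChIP-seq), and MED1, a subunit of the mediator complex, in 1 library per muscle without a replicate. Further Quad libraries of wild-type sedentary mice (Sed), wild-type mice given running wheels for 4 weeks (Ex), wild-type littermates (Wt) and mice with a skeletal muscle-specific PGC1α transgene (mTg), and an accessibility list (ATAC-seq) of control Quad, took no part in the choice. Depth was 21.5 M and 19.2 M tags in the Dia H3K27ac replicates, 17.2 M and 18.2 M in those of H3K4me2, and 19.6 M in the input, as the file headers give it. The study's own list of read counts gives the replicate 2 values of both marks the other way round, and which is right cannot be told here. The chromatin came from whole muscle. A region found in few cells at a high level and one found in many cells at a low level cannot be told apart, and neither can a difference in cell makeup and one within a cell type.

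H3K27ac is deposited by the acetyltransferases CBP and p300 and marks active promoters and enhancers. H3K4me2 lies at promoters and enhancers whether or not they are acetylated, and mediator links transcription factors bound at enhancers to RNA polymerase II. The diaphragm is the main muscle of breathing. Its fibers descend from migrating precursors that express Pax3, its connective tissue from the pleuroperitoneal folds, and, unlike a limb muscle, it is covered on both faces by mesothelium, the epithelium that lines the body cavities. The labelled tissue was therefore set beside lists of muscle, developmental and other cell type genes.

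Sequences (mm10) are shown for 2 of the highest regions and for 2 of the 3 that also carried a Dia MED1 peak, since these bear most directly on the values that follow. Each but the Bnc1 promoter is 300 bases on the plus strand around the centre of the H3K27ac peak or, for Scimp and Grik4, of the MED1 peak. The first lies in an intron of Wt1 (chr2:105130507-105130806) and the second upstream of Bnc1 (chr7:81992895-81993194). The promoter of Bnc1 (chr7:81992250-81992549, minus strand, from RefSeq, GRCm38.p6) runs from 250 bases before to 50 after the start site. The last pair are upstream of Scimp (chr11:70812921-70813220) and in an intron of Arhgef12, with Grik4 as the nearest start site (chr9:42990545-42990844). Capitals mark matches, on either strand, to 1 of 12 short motifs described further on.
Wt1 peak centre: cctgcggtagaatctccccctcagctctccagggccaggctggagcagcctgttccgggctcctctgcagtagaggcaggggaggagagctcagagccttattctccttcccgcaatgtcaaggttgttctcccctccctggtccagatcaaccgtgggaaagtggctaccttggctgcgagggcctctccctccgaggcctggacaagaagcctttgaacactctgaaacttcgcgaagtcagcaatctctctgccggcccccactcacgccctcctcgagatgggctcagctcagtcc
Bnc1 peak centre: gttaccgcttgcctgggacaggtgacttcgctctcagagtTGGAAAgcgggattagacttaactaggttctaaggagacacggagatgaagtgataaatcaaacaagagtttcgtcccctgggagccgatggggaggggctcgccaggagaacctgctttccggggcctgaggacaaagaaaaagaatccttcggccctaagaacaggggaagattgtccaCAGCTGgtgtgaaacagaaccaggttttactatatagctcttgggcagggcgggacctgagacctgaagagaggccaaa
Bnc1 promoter: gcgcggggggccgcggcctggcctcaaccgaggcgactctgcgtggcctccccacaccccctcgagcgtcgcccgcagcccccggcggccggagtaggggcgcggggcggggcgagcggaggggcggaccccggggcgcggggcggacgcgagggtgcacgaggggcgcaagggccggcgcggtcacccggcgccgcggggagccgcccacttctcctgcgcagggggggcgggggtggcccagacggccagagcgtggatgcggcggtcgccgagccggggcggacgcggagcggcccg
Scimp MED1 site: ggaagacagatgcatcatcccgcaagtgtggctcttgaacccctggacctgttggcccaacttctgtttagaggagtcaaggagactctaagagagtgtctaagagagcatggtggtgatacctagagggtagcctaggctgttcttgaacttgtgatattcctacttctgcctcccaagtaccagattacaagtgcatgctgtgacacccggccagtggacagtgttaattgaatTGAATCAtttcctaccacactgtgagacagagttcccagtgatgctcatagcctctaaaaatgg
Grik4 MED1 site: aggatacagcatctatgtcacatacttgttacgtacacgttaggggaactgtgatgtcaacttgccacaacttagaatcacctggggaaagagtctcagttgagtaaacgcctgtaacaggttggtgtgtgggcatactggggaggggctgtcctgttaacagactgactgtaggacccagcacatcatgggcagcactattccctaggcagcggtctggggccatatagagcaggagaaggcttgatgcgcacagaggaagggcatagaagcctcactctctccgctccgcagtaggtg
The Wt1 window held 61.0% G and C, with 11 CpG dinucleotides. The Bnc1 promoter was 83.3% G and C with 50 CpG dinucleotides, and it held none of the 12 motifs, as did the Wt1 and Grik4 windows. The capitals are a MyoD-type E-box (CAGCTG) and an NFAT motif (TGGAAA) in the Bnc1 window and an AP-1 motif (TGANTCA) in the Scimp window.

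The Dia-alone regions were narrow and low among the H3K27ac peaks of Dia. Their median width was 1084 bp, against 1795 bp for all regions with a Dia peak. The level is the authors' log2 tag value per peak, and its median was 5.23 at the Dia-alone regions and 7.24 at all. Per kb of peak the medians were 5.04 and 6.31 on the log2 scale. In replicate 1 the median per kb was 5.12 and in replicate 2 it was 4.95. Of the Dia-alone regions, 96.9% lay under the median per kb of the whole Dia list, and none was in its top 10%. The median enrichment over input was 2.26 on the log2 scale, against 2.43 for all regions with a Dia peak. An adjusted p under 0.001 in the authors' peak call was listed for 228 of them, against 18203 (60.1%) of all regions with a Dia peak. Because these levels come from the list that chose the regions, they are a description. The other single-muscle sets were alike within their own lists. Under their list's median per kb lay 94.5% of EDL-alone, 96.9% of Quad-alone and 96.3% of Sol-alone regions. Their median widths were 1029, 776 and 960 bp. A minority of the Dia-alone regions was broad, and high over the whole peak. Of the 15 peaks of 5 kb or more, 10 held a Dia H3K4me2 peak and 6 held the start site of a protein-coding RefSeq gene.

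The 2 Dia replicates ranked the regions alike, with a Spearman coefficient of 0.896 across the 3255 regions, which are not independent replicates (0.978 across all with a Dia peak). The median size of the difference between replicates was 0.30 on the log2 scale at the Dia-alone regions and 0.21 at all. Replicate 1 was the higher at 65.8% of the Dia-alone regions and at 51.5% of all with a Dia peak.

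**Figure D1:**
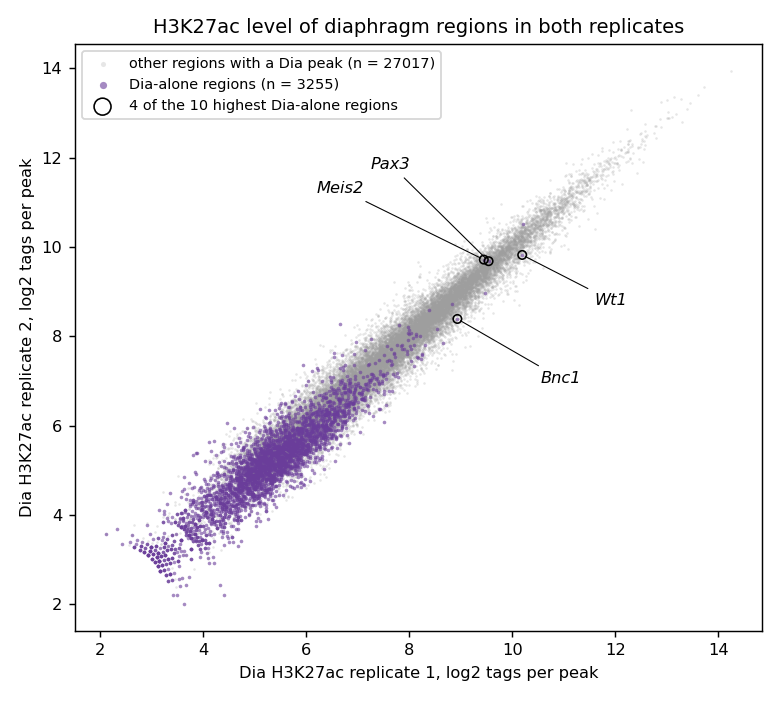
Levels of the H3K27ac peaks of diaphragm in replicate 1 (horizontal, log2 tags per peak) and replicate 2 (vertical), 1 point per region; purple points are the 3255 Dia-alone regions, grey points the 27017 others with a Dia peak and circles 4 of the 10 highest Dia-alone regions. The purple points fill the lower part of the range, and Wt1, Pax3 and Meis2 lie above 9 in both replicates.

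Several of the regions highest over the whole peak lay at genes of developmental transcription factors. Per kb of peak, those at Meis2 (7.47) and Pax3 (6.45) lay above the median of 6.31 of all regions with a Dia peak. Those at Wt1 (6.01), Gata6 (6.11) and Bnc1 (5.54) lay under it. The region at Wt1, a zinc finger factor of the mesothelium, kidney and gonad, was the broadest of all 3255 at 15958 bp (chr2:105122678-105138635). It held the Wt1 start site and reached into the gene, and its values were 10.19 and 9.82 against 7.59 in the input. It carried H3K4me2 peaks of all 4 muscles and none of the H3K27ac peaks of Sed, Ex, Wt and mTg Quad.

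Pax3, a paired-box factor of muscle precursors, followed with an intragenic region (chr1:78142607-78151529) at 9.54 and 9.68. This region was called for H3K27ac in each of the 4 further Quad lists, although not in the Quad list used for the choice. An intronic region of Meis2, a homeobox factor of limb and heart development, stood at 9.45 and 9.72 (chr2:115936076-115940387). It was 126390 bp from the start site and 123453 bp from the nearest H3K27ac peak of another muscle, and Dia was the one muscle with an H3K4me2 peak there.

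The region listed under the noncoding RNA gene 1010001N08Rik was at 9.47 and 8.96 and held the start site of Gata6, a zinc finger factor of heart and endoderm. Bnc1, which encodes the zinc finger protein basonuclin, had a promoter region at 8.94 and 8.39 (chr7:81988698-81997391, 8694 bp). Both carried H3K4me2 peaks of all 4 muscles.

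A region of 5690 bp in an intron of Thada, with Zfp36l2 (an RNA-binding protein that destabilises transcripts) as the nearest start site, was at 8.82 and 8.72. It held no H3K4me2 peak of any muscle, but H3K27ac peaks of Ex, Wt and mTg Quad. Others of the 10 highest were an intergenic region listed under 4930413E15Rik (8.39 and 8.59) and a region in an intron of Frmd4b (8.54 and 8.15). The nearest start site to the latter, 101635 bp away, was that of Lmod3, an actin nucleator of the sarcomere. An intronic region of Fgf7, a growth factor made by stromal cells, was at 8.66 and 7.86. The gap between replicates was 0.80 at Fgf7, the widest among the 10 highest.

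Few of the regions were promoters. The authors' annotation placed 118 of them (3.63%, Wilson 95% interval 3.04 to 4.32) in the promoter class, which runs from 1000 bp before to 100 bp after a start site, against 14.2% of all regions with a Dia peak. Intragenic positions held 1773 (54.5%) and intergenic positions 1364 (41.9%), and 996 (30.6%) lay over 50 kb from a start site. By overlap with RefSeq protein-coding start sites, 156 regions (4.79%) held at least 1, against 28.4% of all with a Dia peak. The 5 highest of the promoter class were those of 1010001N08Rik and Bnc1, then H2-Ab1 (8.21 and 8.01), which encodes a class II histocompatibility chain, Gata4 (8.10 and 7.79) and Serpinb6b (7.96 and 7.67). H2-Ab1 was also called in all 4 further Quad lists and in Quad ATAC-seq. Gata4 and Serpinb6b were called in none of these.

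Other regions over a start site included those of Myrf (8.26 and 7.58), a membrane-bound transcription factor, Gpm6a (7.90 and 7.70), a membrane glycoprotein, and Ppp1r3b (7.70 and 7.63), which directs protein phosphatase 1 to glycogen. Sln encodes sarcolipin, a small inhibitor of the calcium pump of the sarcoplasmic reticulum. Its region held the start site (chr9:53850018-53852100), was at 7.65 and 7.71, and carried H3K4me2 peaks of Dia and Sol. An H3K27ac peak was also listed there in mTg Quad.

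H3K4me2, which took no part in the choice, was called at a minority of the regions. A Dia H3K4me2 peak overlapped 940 of 3255 (28.9%, 27.3 to 30.5), against 62.6% of all regions with a Dia peak. Peaks of the other 3 muscles overlapped 957 (29.4%, 27.9 to 31.0), against 78.8%. By muscle, these were 700 with an EDL peak, 652 with a Quad peak and 591 with a Sol peak. Each of these was fewer than the 940 with a peak of Dia itself.

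Sorted by where H3K4me2 was called, 254 regions (7.80%) had it in Dia only, 686 (21.1%) in Dia and another muscle, 271 (8.33%) in another muscle only and 2044 (62.8%) in none. All 3 other muscles had it at 396. The highest with H3K4me2 in Dia only were those of Meis2, Fggy, Usp46, Mir1a-2 and Dmtn. The promoter class held 82 of the 686 with H3K4me2 in Dia and another muscle, and 21 of the 2044 with none (1.03%). At the 940 regions the Dia H3K4me2 level had a median of 5.37 per kb on the log2 scale, against 6.66 at all 18939 regions with both marks in Dia.

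The other single-muscle sets, chosen in the same way, showed shares of the same kind for their own H3K4me2. EDL peaks lay at 46.7% of 3144 EDL-alone regions, Quad peaks at 33.8% of 6819 Quad-alone regions and Sol peaks at 32.2% of 3158 Sol-alone regions. The interval of the Dia-alone share lay under all 3 values. The Dia H3K4me2 list is also the shortest, with 33138 peaks against 42501 (EDL), 43525 (Quad) and 35696 (Sol). How far list length accounts for the lower share was not tested. The intervals given here cover counting error over regions only, since regions are not replicates of the animals.

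MED1 was called almost nowhere in the set. Dia MED1 peaks overlapped 3 of 3255 regions (0.0922%, 0.0313 to 0.271), against 4.67% of all regions with a Dia peak. Quad MED1 peaks overlapped 7, Sol peaks 16 and EDL peaks none of 3255, where 3 counts, the limit that a count of 0 allows, would be 0.0922% and the Wilson upper bound is 0.118%. The 3 Dia peaks had low scores in their list, at 5.74, 5.22 and 5.22 against a median of 6.26. Scimp, which encodes an immune adaptor protein, had the promoter region at 5.25 and 4.93, with H3K4me2 in Dia only. Nsg1, a protein of neuronal endosomes, had one over its start site at 5.10 and 5.17, with H3K4me2 of all 4 muscles. The region near Grik4, a kainate receptor subunit, was at 6.08 and 5.51 without H3K4me2. In the other single-muscle sets the muscle's own MED1 peaks were also rare. They overlapped 0.127% of EDL-alone, 0.264% of Quad-alone and 0.443% of Sol-alone regions. The MED1 lists differ in length, with 834 (EDL), 2145 (Dia), 3593 (Quad) and 4070 (Sol) peaks. How far list length accounts for these counts and shares was not tested. Depth of the MED1 libraries is unknown.

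The further Quad libraries give a check on whether these regions stayed uncalled in limb muscle. At least 1 of the Sed, Ex, Wt and mTg lists had an H3K27ac peak at 1450 of the 3255 regions (44.5%, 42.8 to 46.3), against 90.7% of all regions with a Dia peak. Wt peaks lay at 851 (26.1%), Ex peaks at 646 (19.8%), mTg peaks at 545 (16.7%) and Sed peaks at 349 (10.7%). The Wt list is also the longest of the 4, with 49010 peaks against 34031 to 36169. A single list accounted for 787 regions, and all 4 lists were at 41. Accessible chromatin of control Quad overlapped 488 (interval 13.8 to 16.3%), against 70.0%. The further Quad share was 68.2% in EDL-alone regions, 47.2% in Sol-alone regions and 61.0% in Quad-alone regions, which the first Quad list itself had called.

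**Figure D2:**
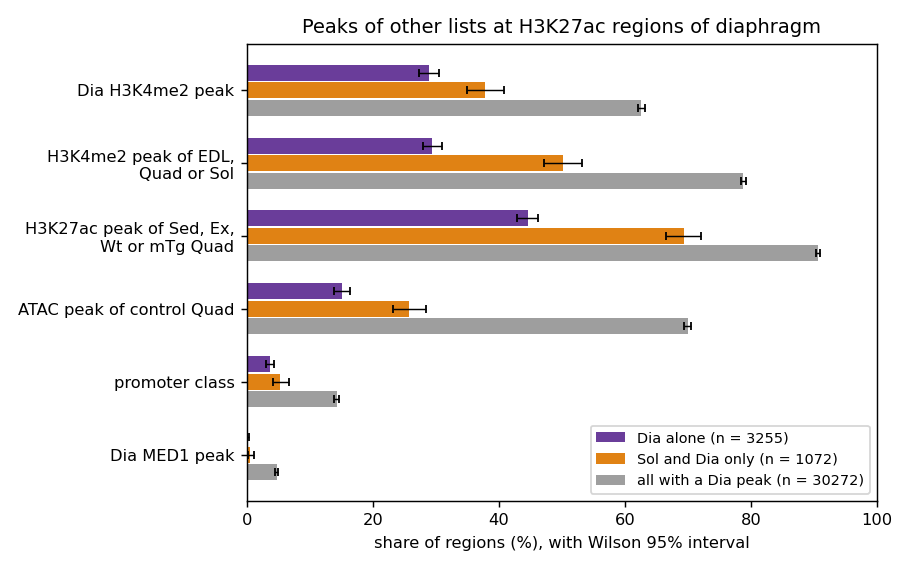
Share of regions (%, with Wilson 95% intervals) that overlapped a peak of each list, or fell in the promoter class, for the 3255 Dia-alone regions, the 1072 called in Sol and Dia only and all 30272 with a Dia peak. The Dia-alone bar is the shortest in every row, from 44.5% for the further Quad lists to 0.0922% for Dia MED1.

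The shares of H3K4me2, further Quad and ATAC-seq peaks rose with the level of the region. In 4 groups of equal size from the lowest to the highest level, Dia H3K4me2 was called at 20.3, 27.9, 31.6 and 35.7% of regions. The further Quad lists had a peak at 29.6, 45.6, 50.2 and 52.8%, and Quad ATAC-seq at 7.62, 12.8, 18.5 and 21.1%. Median width rose from 660 bp in the lowest group to 1776 bp in the highest, so a wider region also had more room for an overlap. How far width accounts for the shares was not tested. Even in the highest group each share stayed under that of all regions with a Dia peak.

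Mesothelial genes had most of their H3K27ac regions in this set. Of 34 merged regions nearest to the 13 genes of the list, 25 were Dia alone (73.5%, against 6.31% of all merged regions), and 28 had a Dia peak at all. The 25 belonged to 10 genes, namely Gpm6a and Upk1b with 5 each, Nkain4 and Krt19 with 3, Wt1, Bnc1 and Lrrn4 with 2, and Msln, Krt8 and Upk3b with 1. Krt18, Krt7 and Muc16 had none. Their mean levels ran from 3.86 to 10.01 with a median of 6.36 (log2 tags per peak), and replicate 1 was the higher in 22 of 25, against 2141 of the 3255 (65.8%). None of the 25 was called in any further Quad list, against 44.5% of all Dia-alone regions, and none overlapped Quad ATAC-seq, against 488 of the 3255. Dia H3K4me2 lay at 7 of the 25, close to its 28.9% of all Dia-alone regions. H3K4me2 of EDL, Quad or Sol lay at 8 of the 25, against 29.4% of all Dia-alone regions. EDL alone held 2 regions of this list, Quad alone 1 and Sol alone 2.

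Individual values followed the defining genes. Msln, which encodes the surface protein mesothelin, had 1 region over its start site, mostly upstream of it (chr17:25753882-25757993), at 7.37 and 7.06. Lrrn4, a leucine-rich repeat protein, had its higher region at 7.56 and 7.05, and Nkain4 at 7.57 and 7.17. The keratin genes Krt19 and Krt8 reached 6.94 and 6.57, and 6.06 and 5.18. The uroplakin genes Upk1b and Upk3b reached 7.30 and 7.13, and 6.61 and 6.21. Upk1b held all 5 of its regions within 14.9 kb. The part that mesothelium in the dissected tissue had in the size of the set was not tested.

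**Figure D3:**
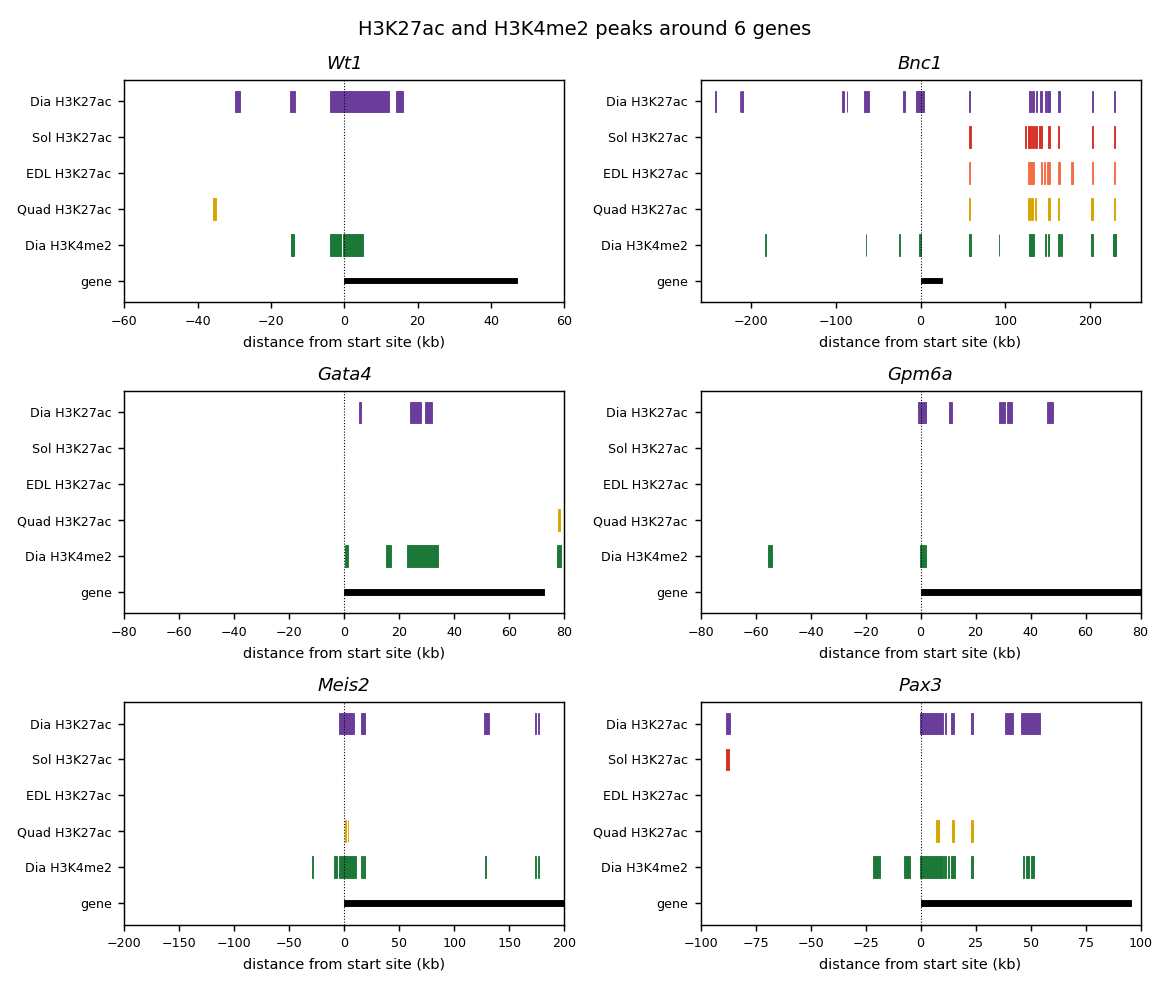
Peaks around the start sites of 6 genes, drawn to scale by distance from the start site in the direction of transcription (horizontal, kb), with 1 row per list and the gene body in black. At Gpm6a all 5 H3K27ac peaks shown are of Dia, and at Wt1 and Gata4 the other muscles show 1 Quad peak each, away from the Dia peaks. At Meis2 and Pax3 Quad peaks (2 and 3) lie within 24 kb of the start site but not at the Dia peaks further into the gene. A Sol peak lies on the farthest upstream Dia peak of Pax3. Around Bnc1 the EDL, Quad and Sol lists show 9, 8 and 10 H3K27ac peaks, all beyond the end of the gene.

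Lymphatic endothelial genes came next. Of 23 regions near the 6 genes of that list, 12 were Dia alone (52.2%, against 6.31% of all merged regions). Of the 12, 5 were at Prox1, a transcription factor of lymphatic identity, 5 at Flt4, a receptor of lymphatic growth factors, and 1 each at Mmrn1 and Ccl21a. Lyve1 and Pdpn had none. The 12 regions were low, with a median of 4.92, and replicate 1 was the higher in 11 of 12. The highest was at Mmrn1 (multimerin), over its start site at 6.93 and 6.61, and the highest at Prox1 was at 5.74 and 5.36. None was called in a further Quad list, against 44.5% of all Dia-alone regions. Dia H3K4me2 lay at 5 of the 12, and the same 5 also carried H3K4me2 of another muscle. Of all Dia-alone regions, 28.9% had the former and 29.4% the latter. Blood endothelial genes had 4 of 94 regions (4.26%) in the set, at Pecam1 (7.55 and 6.47), Kdr, Erg and Tie1. Whether more lymphatic vessels were sampled in the diaphragm was not tested.

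Genes of diaphragm development had 25 of 202 regions in the set (12.4%, against 6.31% of all merged regions), at 13 of 32 genes. Quad alone held 38 regions of this list, EDL alone 15 and Sol alone 8. Quad-alone regions were 13.2% of all merged regions. Beside Wt1 and Pax3, Gata4 had 3 Dia-alone regions and Myrf 2. Each list counts regions by their nearest gene. The Dia-alone region over the start site of Gata6, which is on this list, is thus left out, being listed under 1010001N08Rik. Regions nearest to Wt1os are likewise not counted for Wt1. Gata4, a zinc finger factor of heart and diaphragm connective tissue, had regions at 8.10 and 7.79, at 6.89 and 6.88, and at 4.07 and 3.16. No H3K27ac peak of another muscle lay within 45696 bp of these 3. Nr2f2, Zfpm2, Fras1 and Fgfrl1 had 2 regions each, at mean levels from 3.53 to 5.48. Of its genes with a region in the set, the list shares Wt1 with the mesothelial list, Pax3 with the myogenic list, Fbn1 with the fibroblast list and Gata4 with the cardiac list, where these 3 Gata4 regions made up the 3 of 8 that were Dia alone.

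Limb patterning genes gave 6 of 60 regions (10%, against 6.31% of all merged regions). Quad alone held 11 regions of this list, and EDL alone and Sol alone 5 each. Of the 6, Meis2 had 4, at mean levels from 5.72 to 9.58, each with a Dia H3K4me2 peak, and Meis1 and Shox2 had 1 each. The Shox2 promoter region (7.26 and 7.95) lay 425 bp from a peak of another muscle and was called in Ex, Wt and mTg Quad. Hox genes, which mark position along the body axis, gave 6 of 38 (15.8%), at Hoxb1 and Hoxa4 with 2 each, Hoxb3 and Hoxc4. Their mean levels ran from 4.72 to 6.06, and 5 of the 6 carried Dia H3K4me2, against 28.9% of all Dia-alone regions. The 2 Hoxa4 regions overlapped the same Dia H3K4me2 peak of 11780 bp. EDL alone held 4 regions of the Hox list, Quad alone 2 and Sol alone 1.

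Muscle fiber genes had few regions in the set. Slow fiber genes had 1 of 41 regions (2.44%), upstream of Casq2, the calsequestrin of slow and cardiac muscle (5.57 and 5.74). Fast fiber genes had 1 of 34 (2.94%), within Myh1, the myosin of type IIx fibers (5.36 and 4.87). Oxidative metabolism gave 3 of 104 (2.88%), at Ppara (6.50 and 5.72), Hadha (5.10 and 5.46) and Ppargc1a (5.26 and 4.68), and the neuromuscular junction 1 of 36 (2.78%), at Musk. All 3 myogenic regions of 85 (3.53%) were those of Pax3. These counts are too small to set the lists apart from the 6.31% of all merged regions.

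The remaining lists held few regions, to be read beside the 6.31% of all merged regions. Fibroblast genes had 10 of 112 (8.93%), with the highest at Fbn1 (6.40 and 6.34) and Dcn (6.27 and 6.00) and with Dia H3K4me2 at none of the 10, against 28.9% of all Dia-alone regions. Adipocyte genes had 4 of 43, at Pparg and Fabp4, and smooth muscle and pericyte genes 4 of 35, of which 3 at Rgs5. Schwann cell genes had 2 of 21, both at Mbp, hepatocyte genes 1 of 13, at Apoa1, and immune cell genes none of 16.

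**Figure D4:**
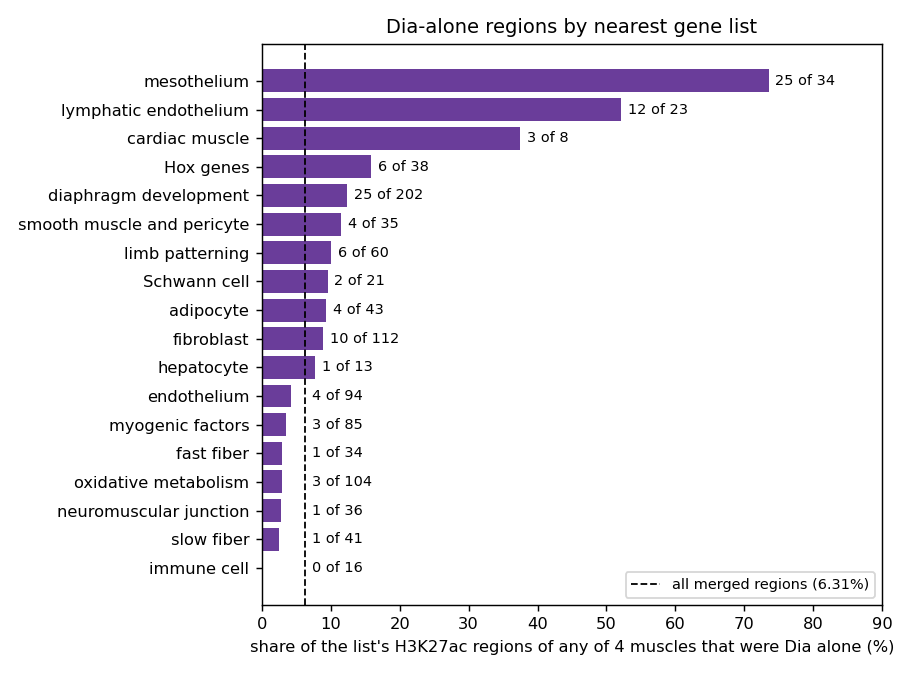
Share of each gene list's merged H3K27ac regions of any of the 4 muscles that were Dia alone (horizontal, %), with the counts beside each bar and a dashed line at the 6.31% of all merged regions. Mesothelial (25 of 34) and lymphatic endothelial genes (12 of 23) reach furthest to the right, while the counts behind the short bars are small.

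The regions were spread over many genes and formed some clusters. They had 2542 nearest genes, of which 2031 had a single region. Nfia, a nuclear factor I gene, and Efna5, an ephrin ligand, had 6 each. At Nfia the 6 were among 25 Dia regions, and 5 carried H3K4me2 of another muscle, at mean levels from 4.77 to 6.35. At Efna5 they were 6 of 8, including the promoter at 7.21 and 6.96, and none was called in the further Quad lists. All 5 H3K27ac regions of Gpm6a and of Sntg1, a syntrophin, were Dia alone, and those of Sntg1 lay at least 387219 bp from a peak of another muscle and held no H3K4me2 of any muscle. Mpp6, Uvrag, Megf6, Mir6351 and 9430019J16Rik also had 5 each.

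Runs of Dia-alone regions with no other merged region between them held 839 of the 3255 (25.8%), in 359 runs. Of these runs 278 were pairs. The longest had 8 regions over 246 kb (chr7:81988698-82235056), from the Bnc1 promoter to Sh3gl3, with mean levels from 2.85 to 8.66 and none called in the further Quad lists. Each of 8 runs had 5 regions, among them those of Gpm6a, Upk1b, Flt4 and Mpp6. The run at Wt1 had 4 over 45.6 kb, nearest to Wt1 or to Wt1os.

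Most regions lay near a peak of another muscle. The median distance to the nearest one was 7263 bp. It was under 1 kb for 386 regions (11.9%), under 5 kb for 1350 (41.5%) and over 100 kb for 217 (6.67%). Just inside the rule were regions at Fmnl2 and 4931440F15Rik, 3 and 4 bp from a peak of another muscle, at 4.70 and 4.75 and at 5.10 and 5.14. Just outside were those at BB123696 and Runx1, which overlapped one by 1 and 7 bp, at 4.92 and 4.44 and at 5.52 and 5.17. In all, 48 regions lay within 100 bp of such a peak, and 37 others with a Dia peak overlapped one by at most 100 bp.

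Base composition was lower in G and C than in the Dia list. In 500 bp around each peak centre the median was 46.8% at the Dia-alone regions and 49.6% at all with a Dia peak, with medians of 6 and 8 CpG dinucleotides. Outside promoters these were 46.6 and 48.6%. In the same windows 12 motifs were counted on both strands. The MyoD-type E-box CAGCTG was in 28.4% of Dia-alone windows (26.8 to 29.9) and 28.7% of all, and the MEF2 motif (CTA and TAG with any 4 bases between) in 8.29 and 8.21%. The GATA motif AGATAAG was in 7.19% (6.35 to 8.13) and 5.52%, the TEAD motif GGAATG in 27.1 and 24.5%, and the AP-1 motif TGANTCA in 17.8 and 15.4%. The NFAT motif TGGAAA was in 41.9 and 38.0%. Outside promoters AGATAAG was in 7.20 against 5.96%, TGANTCA in 18.1 against 16.7%, GGAATG in 27.5 against 25.6% and TGGAAA in 42.0 against 39.9%. There CAGCTG was in 28.5 against 29.9% and the MEF2 motif in 8.35 against 8.80%. No interval was computed for the values outside promoters, so small differences among them cannot be read. The others were TGACAG (34.7 and 32.1%), ACAATGG (6.33 and 5.36%), TGTTTAC (7.53 and 7.14%), GGAAGT (32.5 and 32.5%), AGGTCA (32.2 and 30.1%) and its direct repeat with 1 base between (0.0922 and 0.0991%), which overlaps the single AGGTCA. A match is no evidence of binding.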

How the data were processed

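ChIP-seq and ATAC-seq lists of mouse muscle were used as deposited (mm10). For alignment the authors used Bowtie on ChIP-seq reads (the processing notes and the study's methods name different versions) and Bowtie2 on ATAC-seq reads. The authors kept unique ChIP-seq alignments and 1 tag per position, and called histone peaks on both replicates against input with HOMER and DESeq2 at 2-fold and an FDR of 0.05. The deposited tag columns are log2 values from DESeq2, taken to be its regularized logarithm within each list, and p-values are the authors' own. The deposited MED1 and NFAT score and the deposited ATAC signal were used within their lists only. The MED1 labels name both mm9 and mm10, and the file header mm10, and 66.2% of Dia MED1 peaks lay in Dia H3K27ac peaks. Here, peaks were merged and overlapped with bedtools 2.31.1 (at least 1 bp), levels per kb subtract log2 of the width in kb, and shares carry Wilson 95% intervals. No test was run, since regions are not replicates of animals and each list was scaled alone. The overlap code was tested on planted intervals. RefSeq (GRCm38.p6) gave 21774 protein-coding genes and the sequences.

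The members and the 18 gene lists were chosen with earlier results of these data known. Regions are named where they were the 10 highest, the 5 highest of the promoter class, the 10 highest over a start site, overlapped Dia MED1, belonged to the 10 genes with most regions, or were the 4 highest of a list. Others named were chosen after their values were seen. The authors' lists of differential regions and the NFAT lists give no result here. Some items that met these rules are not reported here.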

Additional observations from a re-analysis of the deposited data

How the results depend on the processing

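Of 55 alternative values, 25 stayed within the Wilson interval or replicate SD of the value reported, or for the number of regions within 1.5 times of it, and 30 did not. The number of Dia-alone regions fell to 228 with the authors' adjusted p under 0.001 only, and to 1805 once regions called in a further Quad list were left out. It was 2706 with at least 4-fold enrichment, 4475 where sharing needed 50% coverage, 3944 with lists of equal size and 2777 with peaks within 1 kb merged. With the stricter p, Dia H3K4me2 was at 43.4% of regions, H3K4me2 of the other muscles at 39.5%, Dia MED1 at 0%, a further Quad list at 47.8% and the promoter class at 6.14%, with median levels per kb of 5.72 for H3K27ac and 5.64 for H3K4me2. Mesothelial genes kept 11 of these 228 regions, and lymphatic genes none. With at least 4-fold enrichment only, the further Quad share was 42.7% and the H3K4me2 level 5.27. Where a peak counted as shared only if covered for 50% or more, the 5 values were 31.9% (Dia H3K4me2), 35.8% (other H3K4me2), 0.291% (Dia MED1), 54.4% (further Quad) and 5.44 (H3K4me2 level). Merging peaks within 1 kb gave a further Quad share of 42.5% and an H3K4me2 level of 5.29. Counting a peak within 1 kb as overlapping gave 30.8% (Dia H3K4me2), 34.3% (other H3K4me2) and 50.5% (further Quad). H3K4me2 peaks of at least 4-fold enrichment gave 25.6 and 25.96% for Dia and the other muscles, and the higher-scoring MED1 peaks left 0%. Taking the same number of top-scoring H3K27ac peaks from each list gave 31.5% (other H3K4me2) and 49.3% (further Quad). Counting regions within 1 kb of a start site gave 8.29% promoters. Over the whole peak, the median level was 5.23 for H3K27ac and 5.61 for H3K4me2. With 1 replicate left out, the H3K4me2 level was 5.35 to 5.42 and the H3K27ac level 4.95 to 5.12 per kb. The cause was not tested. Every share that moved stayed under that of all regions with a Dia peak at the reported setting. No paired analysis was possible because no result comes from a test between groups.

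How far depth limits the calling of narrow, low regions was not tested, and the level of a region uncalled in another muscle is not given there. MED1 had 1 library per muscle, of unknown depth, and the gene named is the nearest start site, which need not be the gene a region acts on.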
